A study of Mus musculus with 20 samples.

Results

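The constitutive proteasome was followed here through the genes of its core particle (Psma and Psmb) and of its regulatory particle (Psmc and Psmd) in microglia, the resident macrophages of the brain. Members were the protein-coding mouse genes whose symbol is Psma, Psmb, Psmc or Psmd followed by a number, leaving out the immunoproteasome genes Psmb8, Psmb9 and Psmb10. This gave 36 genes of 54838 counted, 16 of them in the core group and 20 in the regulatory group. The members lie on 16 chromosomes. The rule that picks them uses names alone and no measured value, but it was set with earlier results of these data known. In 35 of the 36 the counts sufficed for testing. Psma8, an alpha subunit known from testis, did not pass: it had 40 counts in all and between 0 and 11 in a library.

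The proteasome is the large protease that degrades proteins tagged with ubiquitin. Its core is a stack of outer alpha rings, which gate the entry, and inner beta rings, in which Psmb5, Psmb6 and Psmb7 carry the active sites. The regulatory particle docks on the alpha rings: its base holds a ring of ATPases (Psmc genes) that unfold the substrate, and its lid removes ubiquitin. Psmd5, Psmd9 and Psmd10 share the naming but encode chaperones that help to assemble the base. In microglia, as in other macrophages, inflammatory signals are known to exchange Psmb6, Psmb7 and Psmb5 for Psmb9, Psmb10 and Psmb8.

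The RNA came from frontal cortex microglia of mice at postnatal day 40, with 1000 cells of high CD11b and low CD45 sorted from each mouse and amplified as cDNA. The 20 libraries carry 5 genotype labels: 4 are WT (wild type), 5 are C4-/-, 5 are hC4A/-, 4 are hC4B/- and 2 are hC4A/A. C4 is a complement component, and the labels name humanized transgenic mice with human C4A or C4B sequences. How the human sequences are driven, and which mouse C4 alleles the 3 humanized groups carry, the labels do not say. The labels name no agent. The names of the WT tables follow a numbering of their own, so the naming series and the WT genotype cannot be told apart.

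Libraries held 855099 to 2735181 gene counts, of which 13.2% to 79.7% fell on 5 satellite-like genes. Members drew 240 to 7753 counts per library, 0.0177% to 0.307% of all gene counts. Many members stand on few counts. In 4 libraries (C4-/- replicate 3, hC4B/- replicates 2 and 3, hC4A/A replicate 2) more than 27000 genes had a count, against 11348 to 23912 in the other 16. These 4, called broad libraries below, were set apart after the data were seen, and results are given with and without them. Mouse C4b went against the labels: the libraries labelled WT held 0, 0, 2 and 0 counts, and each of the other 16, those labelled C4-/- included, held 4 to 428. Every direction below is therefore a difference between libraries so labelled. All 14 microglia markers had counts in every library, with a summed level of 4963 to 12886 CPM (counts relative to a library size scaled by TMM factors). Neutrophil markers (8 genes) summed to 0 to 1401 CPM, highest in WT replicate 2. Their sum was 98.4 to 1401 CPM in WT and 0 to 146 in C4-/-. It was 0.531 to 113 CPM in hC4A/-, 0.422 to 176 in hC4B/- and 52.6 to 70.2 in hC4A/A. Astrocyte markers (5 genes) summed to 45.1 to 721 CPM. The part of either marker set in the results below was not tested. In bulk samples, fewer cells of a type and less RNA per cell cannot be told apart.

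RefSeq promoter windows (GRCm38.p6, 250 bases before to 50 after a gene's start) were matched for 29 of the 36 members, with 31 windows in all. Those of 4 members are shown, without the bases after the start: Psma3, whose level dominates the core, Psmb5 as a catalytic subunit, and Psmc1 and Psmd6, which had the smallest p over the genotypes. Capitals mark matches on either strand to TGACNNNGC (an antioxidant response element core), to the box CCAAT, to the ETS-type motif CCGGAAG, or to the nuclear respiratory factor palindrome, which reads GCGC, then any base, then a closing TGCGC. None of the 4 motifs contains another. The printed stretches are chr12:70974373-70974622 (plus strand) for Psma3, chr14:54617996-54618245 (minus) for Psmb5, chr12:100109952-100110201 (plus) for Psmc1 and chr14:14120946-14121195 (minus) for Psmd6.
Psma3: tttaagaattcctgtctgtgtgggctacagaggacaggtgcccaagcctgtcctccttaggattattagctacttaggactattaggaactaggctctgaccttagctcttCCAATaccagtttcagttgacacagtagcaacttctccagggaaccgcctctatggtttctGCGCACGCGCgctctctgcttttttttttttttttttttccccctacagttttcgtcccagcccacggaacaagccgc
Psmb5: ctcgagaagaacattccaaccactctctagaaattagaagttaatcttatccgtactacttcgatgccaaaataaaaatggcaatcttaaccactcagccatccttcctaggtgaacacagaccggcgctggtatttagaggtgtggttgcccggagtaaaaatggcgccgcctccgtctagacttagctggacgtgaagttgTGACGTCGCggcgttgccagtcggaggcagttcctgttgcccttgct
Psmc1: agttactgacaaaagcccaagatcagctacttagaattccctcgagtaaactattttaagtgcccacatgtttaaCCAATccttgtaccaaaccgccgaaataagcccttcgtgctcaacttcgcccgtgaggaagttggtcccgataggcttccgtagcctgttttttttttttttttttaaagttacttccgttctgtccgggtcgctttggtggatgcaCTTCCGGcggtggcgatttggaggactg
Psmd6: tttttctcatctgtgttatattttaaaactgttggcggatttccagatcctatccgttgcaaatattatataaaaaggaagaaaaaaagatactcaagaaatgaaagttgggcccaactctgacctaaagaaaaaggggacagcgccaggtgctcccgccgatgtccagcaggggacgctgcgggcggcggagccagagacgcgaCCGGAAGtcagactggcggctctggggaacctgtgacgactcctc

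CCGGAAG was held by 11 of the 31 member windows (35.5%) and by 8.86% of all 32851 windows in the table. Among the members it was held by 10 of 18 regulatory particle windows (Psmc1, Psmc2, Psmc6, Psmd2, Psmd4, Psmd6, Psmd11, Psmd12 and Psmd13) and by 1 of 13 core windows (Psma6). The nuclear respiratory factor palindrome was held by 6 member windows (19.4%, against 4.60% of all): Psma2, Psma3, Psma4, Psmc4, Psmc5 and Psmd14. TGACNNNGC, held by 5 (16.1%, against 12.4%), and CCAAT, held by 12 (38.7%, against 37.4%), were about as frequent as in all windows. The median G and C content was 56.7% in member windows and 52.7% in all. These are matches of letters, given as a description.

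Per kb of exons, core members stood above regulatory particle members, with a median of 13.3 against 7.17 CPM per kb over the means of 20 libraries. Medians by subcomplex were 13.3 in the alpha ring, 12.8 in the beta ring, 11.2 in the ATPase ring, 12.7 in the non-ATPase base (Psmd1, Psmd2, Psmd4), 6.69 in the lid and 2.56 in the assembly chaperones. With the length of the longest transcript, the core and regulatory medians were 21.1 and 10.9. As a group the members were measured above the typical gene: their median mean level was 24.3 CPM, against 9.30 over the 12680 genes tested. Their median coefficient of variation over libraries was 84.7%, against 111% over all genes tested, a background not matched for level.

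**Figure D1:**
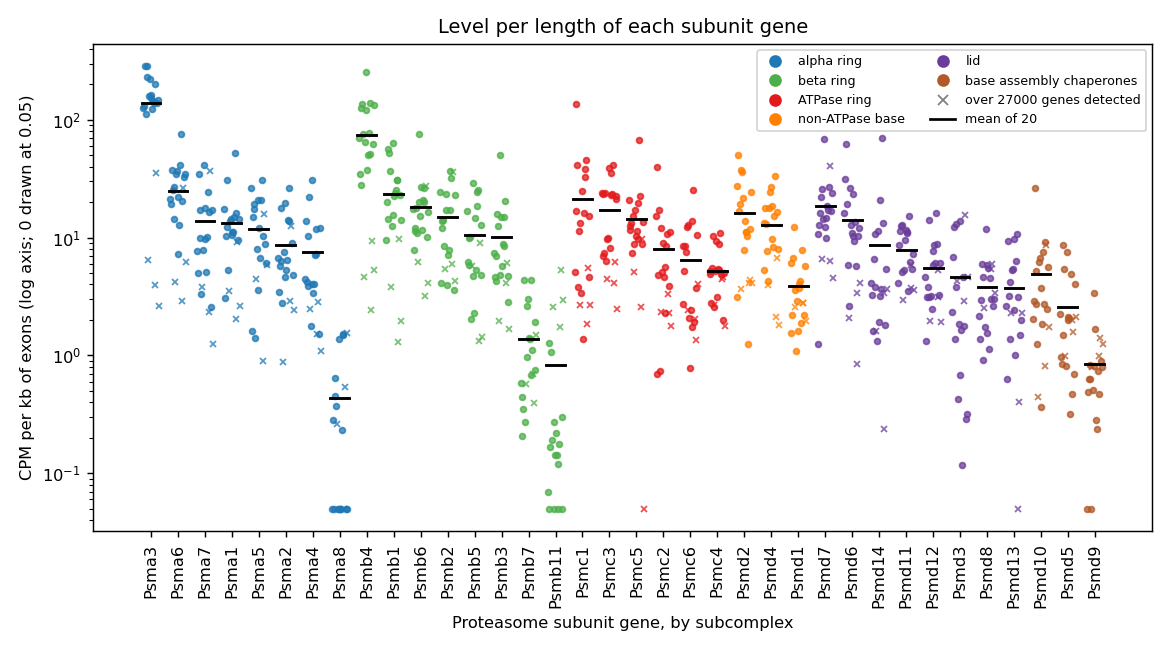
Level of each of the 36 members in CPM per kb of exons (log axis), ordered within each subcomplex by mean. Points are the 20 libraries, crosses the 4 broad ones, black lines the means. Psma3 stands highest with a mean of 139.8 CPM per kb, followed by Psmb4 with 74.0.

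In the alpha ring, Psma3 (ENSMUSG00000060073, GRCm38 chromosome 12, 70974621 to 70996347, plus strand) stood far above its partners. It drew 20080 counts, a median of 33.8% of a library's member counts. Its level was 489, 505, 1110 and 433 CPM in WT replicates 1 to 4, and 1104, 890, 25.3, 614 and 860 CPM in C4-/- replicates 1 to 5. In hC4A/- it was 597, 626, 479, 564 and 538 CPM, in hC4B/- 779, 15.5, 138 and 543, and in hC4A/A 568 and 10.3. The 4 broad libraries were thus all below the other 16, at 10.3 to 138 CPM against 433 to 1110, while the genotypes overlapped. The other alpha genes in the fit had means from 15.6 CPM (Psma5) to 42.2 CPM (Psma7), and per kb from 7.54 (Psma4) to 25.1 (Psma6). The Psma3 locus overlaps an antisense transcript, 3110056K07Rik, with 546 counts, and the counts ignore strand.

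In the beta ring, Psmb4 (mean 144 ± 122 CPM, SD, n = 20) and Psmb1 (107 ± 80.3) stood highest, both structural subunits without an active site. Psmb4 followed the pattern of Psma3, at 4.77 to 18.2 CPM where the library was broad and 54.2 to 495 elsewhere. Of the catalytic subunits, Psmb6 (caspase-like activity) averaged 33.8 ± 28.7 CPM, Psmb5 (chymotrypsin-like) 9.48 ± 7.60 and Psmb7 (trypsin-like) 4.70 ± 4.32. Per kb these were 18.1, 10.5 and 1.37, ranks 7, 17 and 33 of the 36 members. The Psmb7 locus overlaps Nek6 on the other strand, and reads over exons of both genes are set aside as ambiguous in such counts, so its level is uncertain.

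Psmb5 read 15.2, 5.63, 5.31 and 8.84 CPM in the WT libraries and 9.11, 1.85, 5.18, 4.25 and 26.3 in C4-/-. In hC4A/- it read 2.05, 13.3, 4.76, 16.8 and 21.9 CPM, in hC4B/- 22.8, 1.19, 8.07 and 4.34, and in hC4A/A 11.5 and 1.28. Its highest libraries (C4-/- replicate 5, hC4B/- replicate 1 and hC4A/- replicate 5) belong to 3 genotypes, and all 5 groups overlapped. Psmb6 read 33.0, 14.8, 22.7 and 21.3 CPM for WT, 33.6, 20.3, 11.7, 37.7 and 141 for C4-/-, 28.7, 49.9, 21.7, 38.8 and 49.5 for hC4A/-, 37.2, 5.96, 51.1 and 18.8 for hC4B/-, and 30.9 and 7.69 for hC4A/A. C4-/- replicate 5 stood alone at the top. The lowest values were in broad libraries, but hC4B/- replicate 3, also broad, was second highest at 51.1 CPM. Psmb7 read 1.98, 0.704, 1.52 and 1.21 CPM for WT, 14.8, 0.924, 1.94, 9.03 and 3.29 for C4-/-, 10.2, 4.78, 4.76, 2.31 and 14.8 for hC4A/-, 3.80, 2.38, 1.35 and 6.51 for hC4B/-, and 2.55 and 5.13 for hC4A/A. All 4 WT libraries lay below every hC4A/- and hC4A/A library, on 1 to 6 counts each in WT (in these comparisons 1.4% and 11.2% of all genes tested had groups apart). The difference did not pass the test (hC4A/- against WT, adjusted p = 0.631 in edgeR's quasi-likelihood test with Benjamini-Hochberg adjustment).

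Psmb11, the beta subunit known from thymic epithelium, was the lowest core member in the fit per kb, with 107 counts in all. It read 0.330, 0, 6.06 and 0.803 CPM for WT, 5.12, 0.924, 12.3, 0 and 1.32 for C4-/-, 0.682, 1.06, 0.679, 0.579 and 0 for hC4A/-, 0.845, 8.34, 25.6 and 1.45 for hC4B/-, and 0 and 14.1 for hC4A/A. It ran opposite to Psma3: the 4 broad libraries, at 8.34 to 25.6 CPM, were all above the other 16, at 0 to 6.06. Of all genes tested, 9.47% stood above the others in the broad libraries in this way. Psmb11 passed the filter on low counts only through broad libraries (19 counts in C4-/- replicate 3, 38 in hC4B/- replicate 3 and 11 in hC4A/A replicate 2). Its pattern is therefore not independent of that filter.

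In the regulatory particle, Psmc1 (ATPase ring) was highest per kb by mean, at 21.1. By the median over libraries it stood at 12.3, below Psmc3 (15.6) and Psmd7 (15.5). With the length of the longest transcript its mean was 25.7, below Psmd6 at 28.5. Psmd2, the base scaffold that binds ubiquitin-like domains, was highest in CPM at 64.6 ± 54.1 (SD, n = 20). The other ATPase genes ran from 5.25 CPM per kb (Psmc4) to 17.1 (Psmc3). In the lid, Psmd7 led with 18.5 CPM per kb, beside Psmd14, the deubiquitinase it pairs with, at 8.61. Psmd11 was the steadiest member, with a coefficient of variation of 48.2% and a range of 18.8 to 97.6 CPM. Psmd14 was the most variable, at 179%. The chaperone Psmd9 was lowest per kb at 0.843: it read 0.330, 3.52, 4.55 and 6.03 CPM for WT, 4.55, 0, 5.83, 3.72 and 5.92 for C4-/-, 24.6, 12.2, 2.04, 1.74 and 5.38 for hC4A/-, 3.38, 7.15, 10.1 and 6.51 for hC4B/-, and 5.74 and 8.98 for hC4A/A. Its 2 highest libraries were both hC4A/-, and the other 18 lay at 0 to 10.1 CPM.

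**Figure D2:**
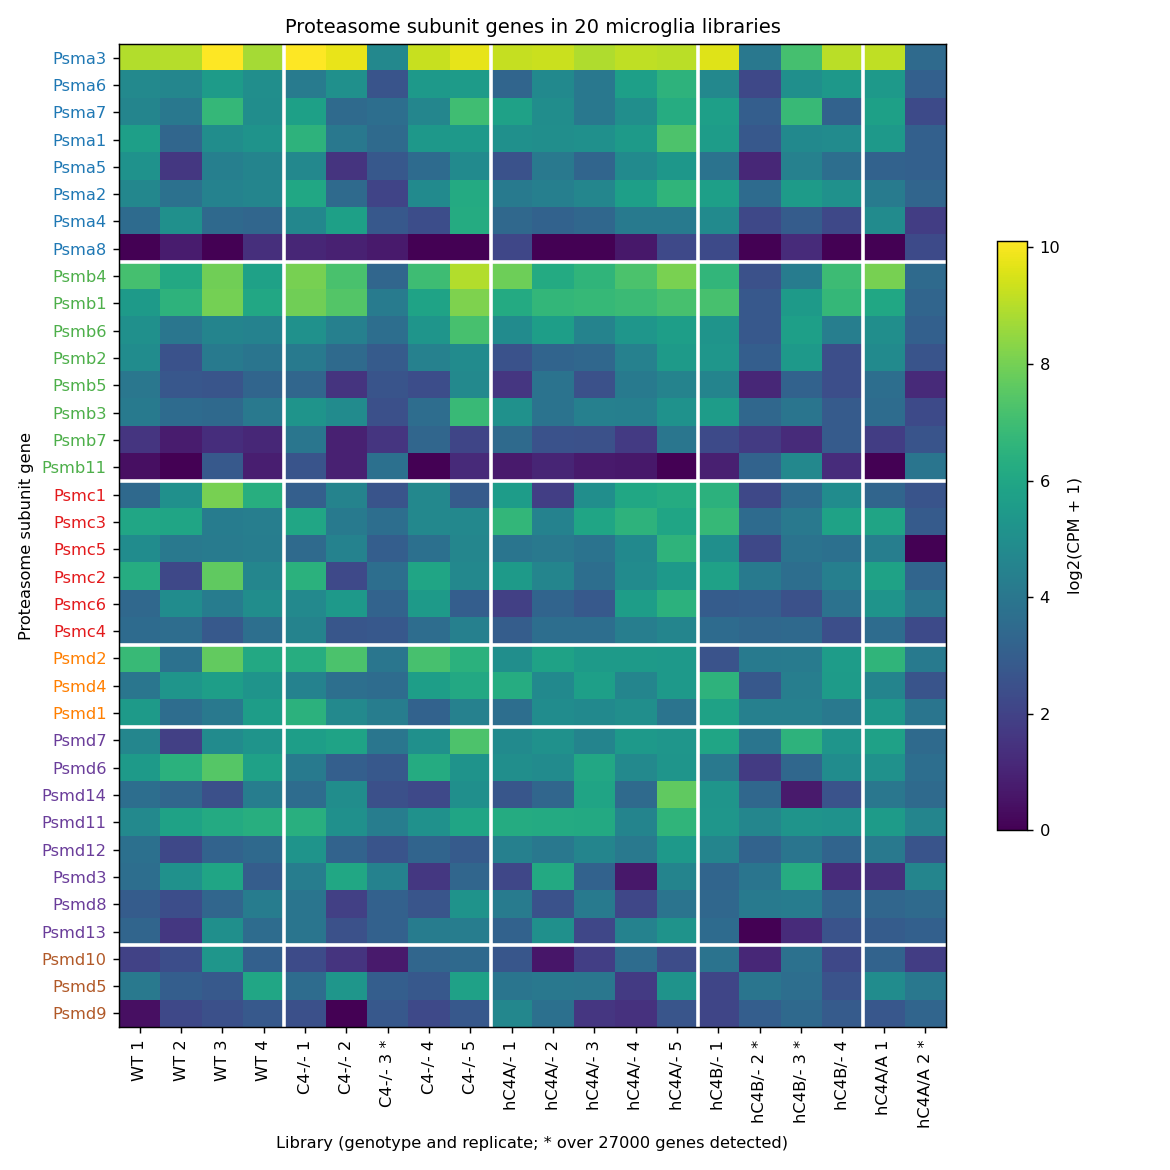
Levels of the 36 members, as log2(CPM + 1), in each of the 20 libraries (columns, by genotype, broad libraries starred), with members in rows by subcomplex. Within a row, the 4 starred cells are the lowest for Psma3, Psmb4 and Psmc3, and the highest for Psmb11.

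The broad libraries had less of most members, but were not alike. Members drew 0.0824% of gene counts in hC4B/- replicate 3 and 0.0177% to 0.0434% in the other broad libraries. The mean over the 4 was below that of the other 16 for 31 of the 35 members in the fit (88.6%), against 50.6% of all genes tested. This held for 14 of 15 core and 17 of 20 regulatory members. The members also had a higher median level than all genes tested (24.3 against 9.30 CPM). Genes of like level were not set beside them. The exceptions were Psmb11, the lid subunits Psmd3 (33.9 against 20.3 CPM) and Psmd8 (13.2 against 11.2), and Psmd9 (8.01 against 5.64). Groups that did not overlap were fewer: 3 members (Psma3, Psmb4 and Psmc3, 8.57%) lay below all other libraries in every broad library, close to the 7.05% of all genes. The broad libraries also had more of their counts on satellite-like genes (50.2% to 79.7% with a median of 63.8%, against 13.2% to 57.6% with a median of 27.7%). Summed astrocyte markers were lower there, at 45.1 to 96.6 CPM against 159 to 721. Summed lymphocyte markers (6 genes) were higher, at 5.18 to 11.5 CPM against 0 to 5.12, and microglia markers had a median sum of 7511 against 10029. The part of any of these in the members' levels was not tested.

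The balance of the particles was taken within each library, as the log2 ratio of the mean CPM per kb of 15 core members to that of 20 regulatory members. It was 1.55, 1.24, 0.96 and 0.83 for WT, 2.21, 1.83, 0.42, 1.39 and 2.33 for C4-/-, 1.44, 1.74, 1.06, 1.52 and 1.21 for hC4A/-, 1.34, -0.19, 1.29 and 1.66 for hC4B/-, and 1.74 and 0.16 for hC4A/A. The core was thus above the regulatory particle in 19 of the 20 libraries, and 3 of the 4 lowest ratios were in broad libraries. Group means were 1.15 ± 0.32 for WT (SD, n = 4), 1.64 ± 0.77 for C4-/- (n = 5), 1.39 ± 0.26 for hC4A/- (n = 5), 1.02 ± 0.83 for hC4B/- (n = 4) and 0.95 ± 1.11 for hC4A/A (n = 2). As a score over chosen members it was not tested, and the groups overlapped. Without the broad libraries, C4-/- read 1.94 ± 0.42 (n = 4), hC4B/- 1.50 ± 0.23 (n = 2) and hC4A/A 1.74 (1 library). The order of the groups thus changed, with WT lowest. As a difference of mean log2(CPM + 1), with no length, the core was above in 16 libraries and below in 4, with group means of 0.12 for WT, 0.56 for C4-/-, 0.38 for hC4A/-, 0.38 for hC4B/- and -0.0019 for hC4A/A.

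Much of that balance rested on 3 genes. Without Psma3 the group means were 0.41 for WT, 1.07 for C4-/-, 0.80 for hC4A/-, 0.61 for hC4B/- and 0.72 for hC4A/A. Without Psma3, Psmb1 and Psmb4, a set chosen after their values were seen, they were -0.13, 0.48, 0.19, 0.38 and 0.30. By this ratio of means the remaining core genes lay nearer to the regulatory genes, and the WT mean changed sign. The trimming was one-sided: no high gene was taken from the regulatory side, and the low assembly chaperones stayed in it. Psma6 (25.1 CPM per kb) also stayed, though it stood above Psmb1 (23.4).

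**Figure D3:**
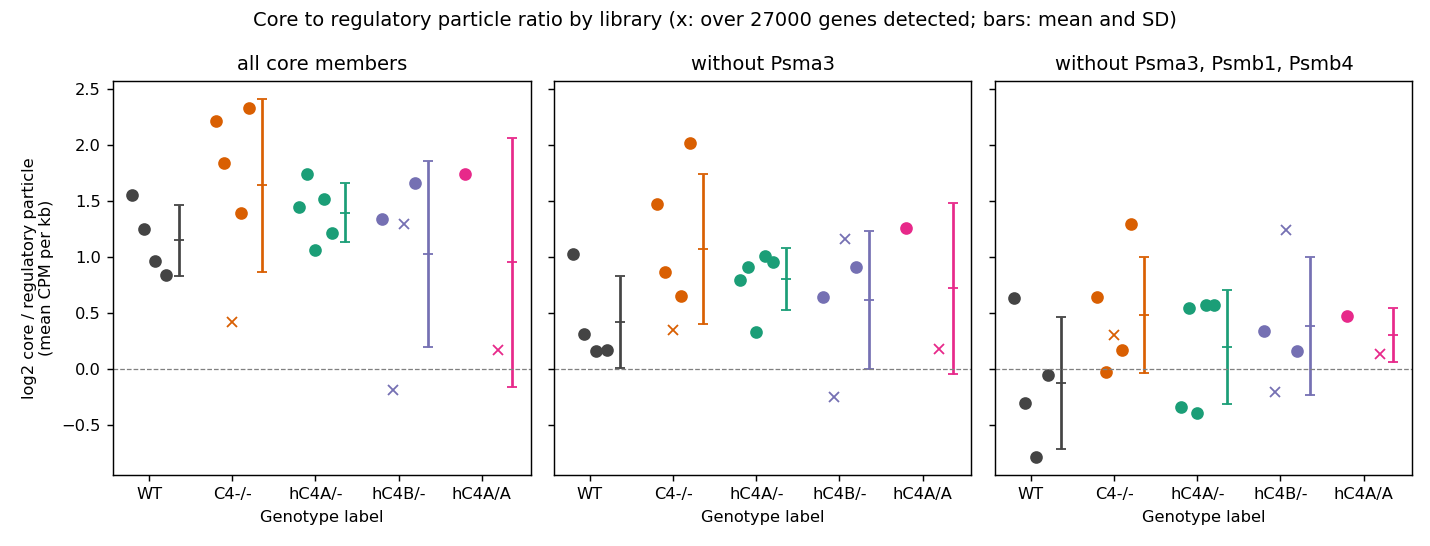
Log2 ratio of core to regulatory particle, from mean CPM per kb, in each library by genotype label, with all core members, without Psma3, and without Psma3, Psmb1 and Psmb4. Crosses are the broad libraries, bars the mean and SD. In WT the mean goes from 1.15 through 0.41 to -0.13.

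As a description of how members varied together, the median Spearman correlation between pairs of members over the 20 libraries was 0.487 within the core (105 pairs), 0.217 within the regulatory particle (190 pairs), 0.314 between them and 0.052 over all pairs of genes tested. That background of all genes was not matched to the members for level. The closest pairs were Psma2 with Psma5 at 0.826 and Psma3 with Psmb1 at 0.797. The points share library, depth and scaling, and the broad libraries hold low values of most members: over the 16 others the medians were 0.385, 0.090 and 0.162, against 0.075 for all genes. Over these 16 the closest pair was Psma1 with Psmb2 at 0.824, Psma2 with Psma5 stood at 0.779, and the median correlation of Psma3 with the other members was 0.056, in place of 0.362 over all 20.

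No member passed the test for a difference among the 5 genotypes. Over all genes tested, 0.118% passed (15 genes by edgeR's quasi-likelihood F test at the 0.05 threshold). There were 2 members at an unadjusted p under 0.05 (Psmc1 and Psmd6), 5.71% of the 35, against 12% of all genes tested. DESeq2 passed 0 members and 0.513% of genes, and limma voom passed 0 of either. The smallest adjusted p of a member was 0.369 (Psmc1), followed by Psmd6 at 0.380, Psmd2 at 0.447 and Psmd14 at 0.462.

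Psmc1, a base ATPase (chromosome 12, 100110154 to 100123405), read 9.90, 32.4, 262 and 79.9 CPM for WT, 7.40, 22.2, 5.18, 25.5 and 6.58 for C4-/-, 47.8, 2.65, 31.3, 63.7 and 74.0 for hC4A/-, 88.7, 3.58, 10.8 and 29.7 for hC4B/-, and 8.93 and 5.13 for hC4A/A. WT replicate 3 stood alone at the top, and both hC4A/A libraries lay below all WT libraries. Psmd6, a lid subunit (chromosome 14, 14112174 to 14120984), read 45.2, 87.3, 176 and 54.2 CPM for WT, 16.5, 7.39, 5.83, 73.8 and 35.5 for C4-/-, 30.7, 28.7, 65.2, 26.0 and 37.7 for hC4A/-, 16.05, 2.38, 9.42 and 29.0 for hC4B/-, and 33.5 and 11.5 for hC4A/A. All WT libraries were above all hC4B/- and hC4A/A libraries for this gene, and overlapped with C4-/- and hC4A/-.

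Psmd2 read 111, 12.7, 205 and 68.3 CPM for WT, 78.6, 151, 14.9, 144 and 87.5 for C4-/-, 31.4, 56.3, 44.8, 45.1 and 41.7 for hC4A/-, 5.07, 16.7, 17.5 and 47.8 for hC4B/-, and 97.6 and 16.7 for hC4A/A. Its hC4A/- values were close together, and its lowest value was in hC4B/- replicate 1, a library that is not broad. Psmd14 read 11.6, 9.15, 4.55 and 18.5 CPM for WT, 10.8, 30.5, 4.54, 3.72 and 32.2 for C4-/-, 5.46, 9.03, 58.4, 10.4 and 198 for hC4A/-, 37.6, 9.54, 0.673 and 5.07 for hC4B/-, and 15.3 and 10.3 for hC4A/A. The hC4A/- mean of 56.4 CPM rested on replicate 5.

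**Figure D4:**
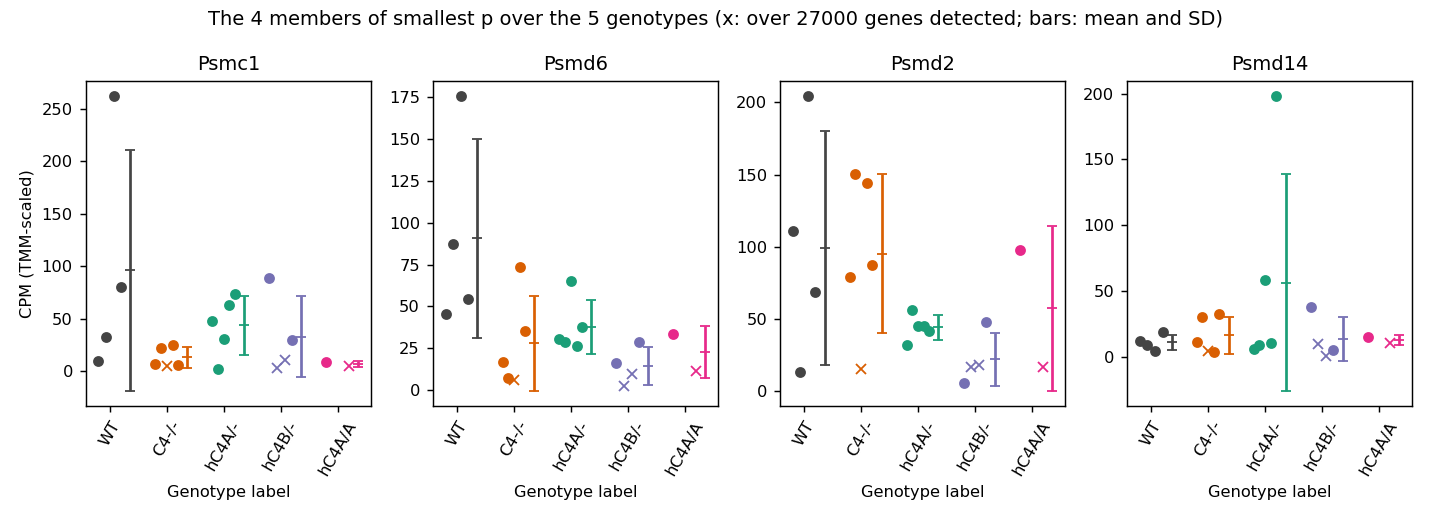
Level in CPM of the 4 members with the smallest p over the genotypes, in each library by genotype label, with crosses for the broad libraries and bars for mean and SD. Single libraries stand out, WT replicate 3 at 262 CPM for Psmc1 and hC4A/- replicate 5 at 198 for Psmd14.

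Against WT, 4 comparisons share the same WT libraries. None of the 35 members passed in any of them, and edgeR passed 0% of all genes in each. DESeq2 passed 0 members too, and 0.158% of genes for C4-/-, 0.166% for hC4A/-, 0.418% for hC4B/- and 0.0158% for hC4A/A, while limma voom passed 0 members and 0.00789% of genes for hC4A/- alone. The numbers of members at an unadjusted edgeR p under 0.05 were 2 for C4-/- (8.53% of all genes were), 2 for hC4A/- (7.51%), 2 for hC4B/- (13.1%) and 1 for hC4A/A (8.41%).

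In C4-/- against WT, the member of smallest p was Psmc1, with a mean of 13.4 ± 9.66 CPM (SD, n = 5) against 96.1 ± 115 (n = 4) and a log2 fold change of -2.84 (SE 0.927, edgeR adjusted p = 0.528). Without WT replicate 3 it was -1.60. No member's groups were apart, against 1.41% of genes. Fitted values lay above 0 for 13 of 15 core and 9 of 20 regulatory members, against 61% of all genes, and the median log2 fold change was 0.43 over core members, -0.07 over regulatory members and 0.33 over all genes. Over all 35 members it was 0.11, and -0.10 to 0.31 when single libraries were left out.

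In hC4A/- against WT, Psmd14 had the smallest p, with a log2 fold change of 2.35 (SE 1.05, edgeR adjusted p = 0.611). Without hC4A/- replicate 5 the value was 1.07. Psmb7 and the lid subunit Psmd12 were the members whose groups did not overlap (1.4% of all genes did not): Psmd12 averaged 23.6 ± 11.3 CPM in hC4A/- (n = 5) and 8.53 ± 3.70 in WT (n = 4). In all, 9 core and 12 regulatory members lay above 0, against 47.7% of genes, with medians, in the same order, of 0.30, 0.29 and -0.05. The median over all members was 0.30, and 0.10 without hC4A/- replicate 5.

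In hC4B/- against WT, Psmd6 led with 14.2 ± 11.3 CPM (n = 4) against 90.6 ± 59.6 (n = 4) and a fitted log2 fold change of -2.65 (SE 0.855, edgeR adjusted p = 0.339). It was -1.73 without the broad libraries, and it was the member whose groups did not overlap (3.75% of genes). Above 0 were 8 core and 7 regulatory members, against 54.6% of genes, with medians of 0.03 (core), -0.30 (regulatory) and 0.18 (all genes). The median over all members was -0.21, turned to 0.22 without the broad libraries and was -0.94 without hC4B/- replicate 1. In hC4A/A against WT, Psmc1 led with 7.03 ± 2.69 CPM (n = 2), a log2 fold change of -3.73 (SE 1.42, edgeR adjusted p = 0.557), and -2.49 without WT replicate 3. Psmc1, Psmd6 and Psmb7 did not overlap (11.2% of genes). Here 5 core and 6 regulatory members lay above 0, against 54.6% of genes, with medians of -0.32, -0.58 and 0.18 in that order. The median over all members was -0.39, turned to 0.17 without the broad libraries and was -1.60 without hC4A/A replicate 1, so its direction rested on 1 of 2 libraries.

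Against C4-/-, 3 comparisons share the C4-/- libraries. No member passed in edgeR, DESeq2 or limma voom, edgeR passed 0% of all genes, and no member's groups were apart (1.03%, 0.741% and 4.25% of genes in hC4A/-, hC4B/- and hC4A/A). DESeq2 passed 0.0789%, 0.0237% and 0% of genes, and limma voom 0.00789%, 0% and 0%. In hC4A/-, 0 members were at an unadjusted p under 0.05 (10.7% of genes were), and Psmc1 led with a log2 fold change of 1.71 (SE 0.869, edgeR adjusted p = 0.477). In hC4B/- there was 1 (4.52% of genes), Psmd2, at 21.8 ± 18.3 CPM (n = 4) against 95.2 ± 55.4 (n = 5) and a fitted log2 fold change of -2.13 (SE 0.805, edgeR adjusted p = 0.989).

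In hC4A/A against C4-/- there were 0 (2.17% of genes), and the beta ring subunit Psmb3 led with -2.37 (SE 1.17, edgeR adjusted p = 1), or -1.41 without C4-/- replicate 5. Fitted values lay above 0 for 7 core and 12 regulatory members for hC4A/- (38.3% of genes), 2 and 8 for hC4B/- (48.8%), and 2 and 3 for hC4A/A (49.1%). Median log2 fold changes of core and regulatory members were -0.13 and 0.34 for hC4A/-, -0.55 and -0.23 for hC4B/-, and -0.68 and -0.36 for hC4A/A. Those of all genes were -0.32, -0.03 and -0.02. The median over all members was 0.16 for hC4A/-, and 0.057 without the broad libraries. For hC4B/- it was -0.27, and 0.18 without hC4B/- replicate 2. For hC4A/A it was -0.61, and 0.044 without hC4A/A replicate 2.

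Between the human genes, hC4A/- against hC4B/-, 0 members passed with edgeR (0% of genes), DESeq2 (0.457%) or limma voom (0%), and none was apart (2.51% of genes). At an unadjusted p under 0.05 there were 3 members (Psmb11, the ATPase Psmc6 and the lid subunit Psmd13), against 16.7% of genes. Psmb11 led with 0.600 ± 0.383 CPM in hC4A/- (n = 5) and 9.05 ± 11.5 in hC4B/- (n = 4) and a fitted log2 fold change of -3.80 (SE 1.52, edgeR adjusted p = 0.246). Its high values in hC4B/- were the 2 broad libraries, and without hC4B/- replicate 3 the log2 fold change was -2.38. Psmb11 entered the fit through broad libraries, so its lead is not independent of them. In this comparison 12 core and 15 regulatory members lay above 0, against 46.3% of genes, and the medians were 0.41 (core), 0.62 (regulatory) and -0.14 (all genes). The median over all members was 0.49, with 0.098 without hC4B/- replicate 2 and 1.11 without hC4B/- replicate 1. All hC4A/- libraries have fewer than 27000 genes detected, and 2 of the 4 hC4B/- libraries are broad.

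Between the labels with human C4A, hC4A/A against hC4A/-, 0 members passed with edgeR (0% of genes), DESeq2 (0.00789%) or limma voom (0.0473%). At an unadjusted p under 0.05 there were 0 members (11.5% of genes). Psmb11 led with a log2 fold change of 3.39 (SE 1.70, edgeR adjusted p = 0.446). It was -3.24 without hC4A/A replicate 2, the broad library that holds all 11 of that group's counts. That library is among those through which Psmb11 passed the filter, so this lead is not independent of it. Psmd4 (a ubiquitin receptor of the base), Psmb3 and Psmb1 did not overlap (9.17% of genes), all lower in hC4A/A: Psmb1 averaged 36.9 ± 39.4 CPM (n = 2) against 109 ± 25.5 (n = 5). Above 0 were 2 core and 5 regulatory members, against 54.3% of genes, with medians of -0.94 (core), -0.77 (regulatory) and 0.17 (all genes). The median over all members was -0.82, and ran from -1.87 without hC4A/A replicate 1 to -0.25 without replicate 2.

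**Figure D5:**
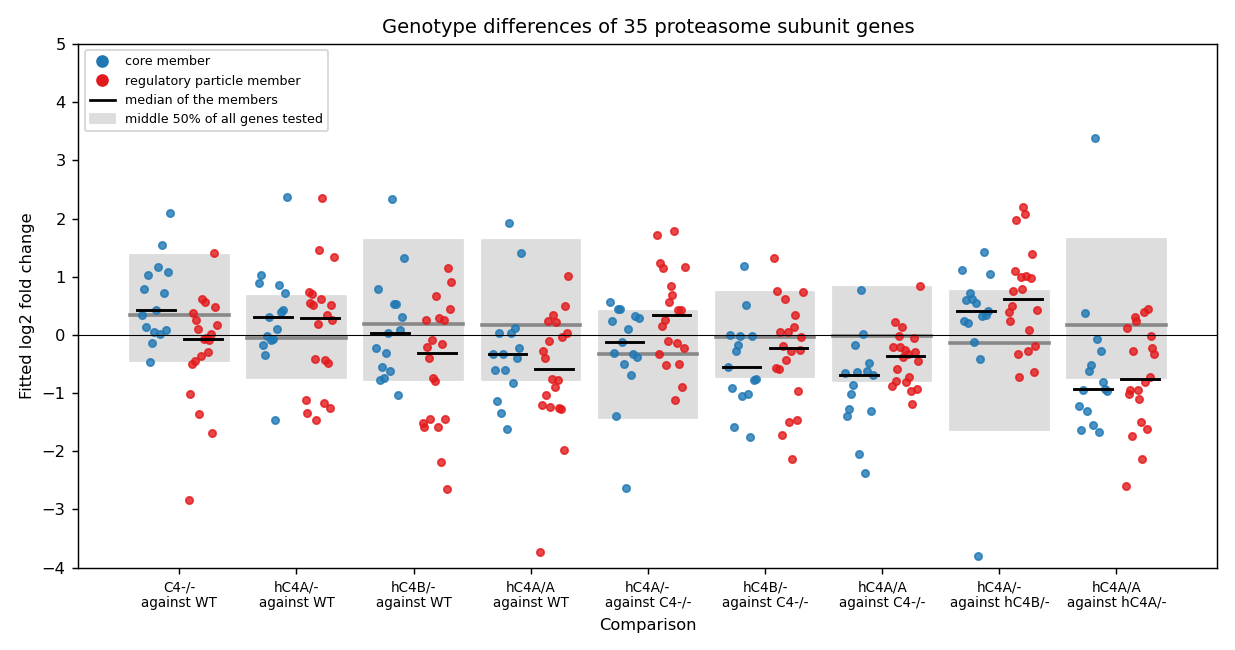
Fitted log2 fold changes of the 35 members in the 9 comparisons, core members in blue, regulatory particle members in red, black lines their medians. Grey boxes span the middle 50% of all genes tested and grey lines their median. No point passed the test.

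Over the 9 comparisons, 11 of 315 member values had an unadjusted p under 0.05 (3.49%), against 9.24% over all genes. They belonged to 8 members. The median standard error of a member's log2 fold change was 0.816 to 1.13 by comparison, so a difference of that size could not be resolved. That is no limit of detection: larger fitted values, such as -3.73 for Psmc1 in hC4A/A against WT, did not pass either. The sign of the members' median depended on the scaling in 2 comparisons of hC4B/-: with DESeq2 size factors it was 0.10 in place of -0.21 against WT, and 0.10 in place of -0.27 against C4-/-. That scaling moved the median of all genes by -0.33 to 0.35 over the 9 comparisons, and no scaling factor moved it by -0.41 to 0.31.

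Among related genes, 33 in 7 lists were tested, and 1 passed in the test over the 5 genotypes, where 0.118% of all genes tested did. This was Ubqln1, a shuttle that carries tagged proteins to the proteasome (adjusted p = 0.0185, edgeR quasi-likelihood F test), at 2255 CPM in hC4B/- replicate 3 and 1.69 to 50.4 in the other 19 libraries. The remaining genes passed in none of the comparisons: 3 immunoproteasome genes, 5 activators and inhibitor genes, 5 core assembly chaperones, 2 other regulatory particle subunits, 7 more shuttles and bound enzymes, 5 ubiquitin and E1 genes, and 5 genes of proteasome gene control. At an unadjusted p under 0.05 were 14 of 297 values (4.71%), against 9.24% over all genes. The immunoproteasome genes stood at 23.6 ± 15.2 CPM (Psmb8), 35.4 ± 38.4 (Psmb9) and 18.9 ± 11.3 (Psmb10; SD, n = 20). Per kb these were 6.97, 9.68 and 11.1, beside 10.5, 18.1 and 1.37 for Psmb5, Psmb6 and Psmb7.

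Nfe2l1, the transcription factor known to raise proteasome genes when degradation is blocked, was low at 7.86 ± 8.09 CPM (SD, n = 20), and unlike most members was higher in the broad libraries (mean 16.8 against 5.62). Ddi2, the protease that activates it, stood at 353 ± 206 CPM, with 30.8 to 53.1 in those 4 and 246 to 848 elsewhere. Neither passed in any comparison.

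Other annotated genes overlap 16 of the members, and the counts neither use strand nor hold reads that map to several places, so levels of overlapping members are uncertain. The 4 annotated proteasome pseudogenes matched by name held 19 counts in all.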

How the data were processed

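Each of the 20 libraries (1 per mouse) has a deposited table of unnormalized read counts by gene. STAR and edgeR are named in the submitters' processing notes, with the build GRCm38 and no version. The annotation used is not named in those notes. The column of counts that ignores strand was read, and symbols came from GENCODE release 21 for the mouse (54809 of 54838 identifiers matched). Lines that name no gene stayed out: unmapped reads (14.8% to 42.1% of reads), reads mapped to several places (13.2% to 28.9%), reads outside genes (21.8% to 42.1%) and ambiguous reads (0.897% to 5.86%). A further table of whole-number values was not used here.

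Genes were filtered with filterByExpr by genotype (12680 kept) and scaled by TMM. All 20 libraries entered 1 robust edgeR quasi-likelihood model (edgeR 4.0.16, R 4.3.3), with a coefficient for each genotype and 15 residual degrees of freedom (biological coefficient of variation 1.03). Benjamini-Hochberg adjustment ran over all genes, with a threshold of 0.05. For edgeR, the standard error (SE) is the absolute log2 fold change divided by the square root of its F statistic. It was thus derived from the test and not fitted apart. DESeq2 1.42.0 and limma voom 3.58.1 served as alternatives, with other scalings, no filter, a replicate block and the leaving out of libraries. The code was also run on simulated data with a smaller spread than these libraries have, which cannot show how the model performs here.

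CPM per kb divides the CPM by the length of all exons of a gene. Values in every library are given for the catalytic subunits, the highest and lowest member per kb of each particle among those in the fit, and the 4 members of smallest p over the genotypes, and each comparison names its member of smallest p. Other members are named by level or because their groups did not overlap. Members, lists and comparisons were chosen with earlier results of these data known.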

Additional observations from a re-analysis of the deposited data

Results flagged for a closer look

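Groups of 4 or 5 libraries were searched for 1 library far from the rest (11 members and the ratio of core to regulatory particle, each in the 4 genotypes large enough). Of 48 groups, 5 had one. The rule marks about 5% of groups by chance where values are normally distributed. CPM values need not be, so 5 of 48 cannot be read as an excess. Psma3 in WT replicate 3 stood at 1110 CPM, against 433 to 505 in the other WT libraries. Psmb11 in the same library stood at 6.063 CPM, against 0 to 0.803. In C4-/- replicate 5, Psmb6 stood at 141.5 CPM, against 11.7 to 37.7 in the other C4-/- libraries, and Psmb3 at 116.5, against 4.54 to 36.4. Psmd14 in hC4A/- replicate 5 stood at 198.5 CPM, against 5.46 to 58.4. None of these 3 libraries is among the 4 with more than 27000 genes detected.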

How the results depend on the processing

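No member passed in any of 289 combinations of a comparison and another setting (29 settings, 20 of them leaving out 1 library), and the lowest adjusted p among them was 0.0897 (hC4A/A against hC4A/- without hC4A/A replicate 1). Genes passing over the 5 genotypes numbered 15, and 24 with DESeq2 size factors, 38 without the satellite-like genes, 697 without a filter, 65 in DESeq2, 0 in limma voom, 2 without the broad libraries and 0 to 34 without 1 library, with 0 after leaving out WT replicate 1, C4-/- replicate 1 or hC4B/- replicate 3. In single comparisons, where edgeR passed 0, DESeq2 passed 0 to 58 and the unfiltered fit 0 to 65. No pairing by replicate number was seen, though these values cannot exclude it. Over 33 pairs of one number the median correlation of deviations was 0.0083 (-0.30 to 0.70), against -0.0014 over 124 other pairs. For 6 of the 20 libraries the best match had their own number. With the number as a replicate block 0 genes and 0 members passed over the genotypes. The members' median log2 fold change had the other sign in 0 to 8 of the 29 settings, by comparison. Leaving out single libraries, it ran from -0.94 to 0.15 in hC4B/- against WT, from -1.60 to 0.16 in hC4A/A against WT, from -1.47 to 0.044 in hC4A/A against C4-/-, from 0.098 to 1.11 in hC4A/- against hC4B/- and from -1.87 to -0.25 in hC4A/A against hC4A/-. Psmb11 in the last ran from -3.24 (reversed, without hC4A/A replicate 2) to 4.40 (without replicate 1). As mean log2(CPM + 1) without length, the core exceeded the regulatory particle by 0.12 in WT, 0.56 in C4-/- and 0.38 in both hC4A/- and hC4B/-, with -0.0019 in hC4A/A. Without Psma3, an alternative chosen after seeing the data, the ratio was 0.41 in WT and 0.80 in hC4A/-, and without Psma3, Psmb1 and Psmb4 it was -0.13 in WT, 0.48 in C4-/- and 0.19 in hC4A/-. The cause was not tested.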
